A study of Mus musculus with 6 samples.

Results

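Normal bladder urothelium was represented by 2 of the 6 arrays of the series, which were chosen by their titles. Both came from wild-type FVB/N mice aged 8 months. The other 4 arrays came from FVB/N mice of the same age with the genotype H-ras+/-, p53-/-, with 2 arrays of carcinoma in situ, a flat lesion within the epithelium, and 2 of invasive carcinoma. All 6 samples were obtained by laser capture microdissection, which lifts selected cells off a stained frozen section under the microscope, and 100 ng of RNA from each was labelled for arrays that read transcripts near their 3′ end. The labels did not tie a captured region to an animal, did not state the sex of the mice, and did not name the promoter or tissue of the H-ras transgene or say whether a region came from several animals. Normal urothelium therefore differed from every lesion in genotype as well as in histology, and these cannot be told apart. The signal of sex-linked genes also differed between arrays, as given below. The question here was which genes gave the brightest signal in both normal arrays, which other cell types left signal in them, and how far the arrays lay apart.

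The urothelium lines the bladder as a stratified epithelium of basal, intermediate and superficial cells. The superficial cells, called umbrella cells, carry a rigid plaque of uroplakins on their apical membrane, which keeps urine from leaking back, and they contain keratin 20. Basal cells carry keratin 5 and rest on a basement membrane above connective tissue, vessels and the smooth muscle of the detrusor.

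The umbrella cell markers were bright in both normal arrays. Upk3a, a single-span uroplakin that pairs with Upk1b, gave a log2 signal of 14.09 in array 1 and 13.63 in array 2. Upk1a, a tetraspanin that pairs with Upk2, gave 11.45 and 11.19. Krt20, the intermediate filament keratin of umbrella cells, gave 11.55 and 10.14. The median gene lay at 6.92 and 6.91. To read such values as positions, all 18193 named genes were ranked within each array, and a percentile of 99 means that 99% of the genes were as dim or dimmer. On that scale Upk3a stood at 99.9 and 99.8, Upk1a at 96.0 and 95.7, and Krt20 at 96.3 and 90.1. The brightness of a probe set depends on its probes as well as on its transcript, so a percentile places a signal and does not measure the abundance of one gene against another.

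The promoters of the marker genes are shown because these genes define the tissue and lay above all 4 lesion arrays together. They are 300 bases each, from 250 bases before to 50 bases after the annotated start, 5′ to 3′ on the strand of the gene, from RefSeq on GRCm38.p6. The table held 4 of the 6 genes looked up, and Upk1b and Upk2 were not matched. Upk3a lies at chr15:85016891-85017190 on the plus strand, Upk1a at chr7:30612685-30612984 on the minus strand, Krt20 at chr11:99438104-99438403 on the minus strand and Upk3b at chr5:136038246-136038545 on the plus strand. Capitals mark every match, on either strand, to GATAA (the core bound by GATA factors), TGTTTAC (forkhead factors), AGGTCA (a nuclear receptor half-site), TATAAA (the TATA box) and AACCGG (grainyhead-like factors).
Upk3a: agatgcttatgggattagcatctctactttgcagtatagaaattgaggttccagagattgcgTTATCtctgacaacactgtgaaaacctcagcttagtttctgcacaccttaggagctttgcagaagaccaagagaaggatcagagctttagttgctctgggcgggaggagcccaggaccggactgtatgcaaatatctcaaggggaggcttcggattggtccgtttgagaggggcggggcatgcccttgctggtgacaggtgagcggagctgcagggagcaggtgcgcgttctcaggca
Upk1a: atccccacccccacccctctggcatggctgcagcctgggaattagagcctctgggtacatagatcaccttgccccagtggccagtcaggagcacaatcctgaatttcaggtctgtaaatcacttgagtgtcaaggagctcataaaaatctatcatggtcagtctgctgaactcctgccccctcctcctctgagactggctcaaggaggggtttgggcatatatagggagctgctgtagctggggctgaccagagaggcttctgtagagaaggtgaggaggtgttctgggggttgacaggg
Krt20: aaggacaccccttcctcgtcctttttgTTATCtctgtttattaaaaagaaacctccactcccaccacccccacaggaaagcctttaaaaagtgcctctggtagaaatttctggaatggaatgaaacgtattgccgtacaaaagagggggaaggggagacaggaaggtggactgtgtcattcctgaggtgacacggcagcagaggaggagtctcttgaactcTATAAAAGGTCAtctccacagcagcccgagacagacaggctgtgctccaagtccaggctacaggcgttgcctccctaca
Upk3b: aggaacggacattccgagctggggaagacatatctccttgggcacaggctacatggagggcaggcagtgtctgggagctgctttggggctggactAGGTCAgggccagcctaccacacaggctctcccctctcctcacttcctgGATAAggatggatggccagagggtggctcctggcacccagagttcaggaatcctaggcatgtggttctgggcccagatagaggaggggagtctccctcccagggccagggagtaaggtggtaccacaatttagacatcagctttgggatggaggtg
GATAA or its reverse complement TTATC stood once in the windows of Upk3a, Krt20 and Upk3b, and 25.4% of all 32851 promoters of this length held it. AGGTCA stood in the windows of Upk3b and Krt20, against 16.3% of all promoters, and in Krt20 it directly followed a TATAAA, which 13.6% of all promoters held. TGTTTAC, found in 3.65% of all promoters, and AACCGG, found in 6.83%, were in none of the 4 windows, and the window of Upk1a held none of the 5 motifs. A match is a string of letters and was not tested as a binding site.

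Before the ranking is read, 3 measurements set the normal arrays apart from each other. Xist, the RNA that coats the inactive X chromosome in female cells, gave 6.85 in array 1 and 13.37 in array 2, and its other 2 probe sets were higher in array 2 by 8.57 and 9.22 log2 units. The Y-linked genes Eif2s3y (9.39 and 8.49), Kdm5d (8.28 and 7.62) and Uty (7.88 and 8.44) were bright in both. Array 2 thus carried Xist and Y-linked signal together, as did array 1 of invasive carcinoma, where Xist was 10.28 and Eif2s3y 8.52. The 2 carcinoma in situ arrays had Xist at 13.17 and 13.33 with Kdm5d at 2.90 and 2.84. Control probe sets along single transcripts also differed. For Actb the 3′ end was brighter than the 5′ end by 1.60 log2 units in array 1 and 4.52 in array 2, with 0.97 to 2.45 in the lesions. For Gapdh the excess was 2.51 and 3.79, with 0.58 to 2.87 in the lesions. The 5′ probe set of 18S ribosomal RNA gave 7.30 in array 1, 11.38 in array 2 and 11.93 to 12.93 in the lesions. The 9 hybridisation control probe sets, which read RNA added in known amounts, were higher in array 2 by a median of 1.35 log2 units (range 0.62 to 1.65). The part of these measurements in the results was not tested.

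**Figure D1:**
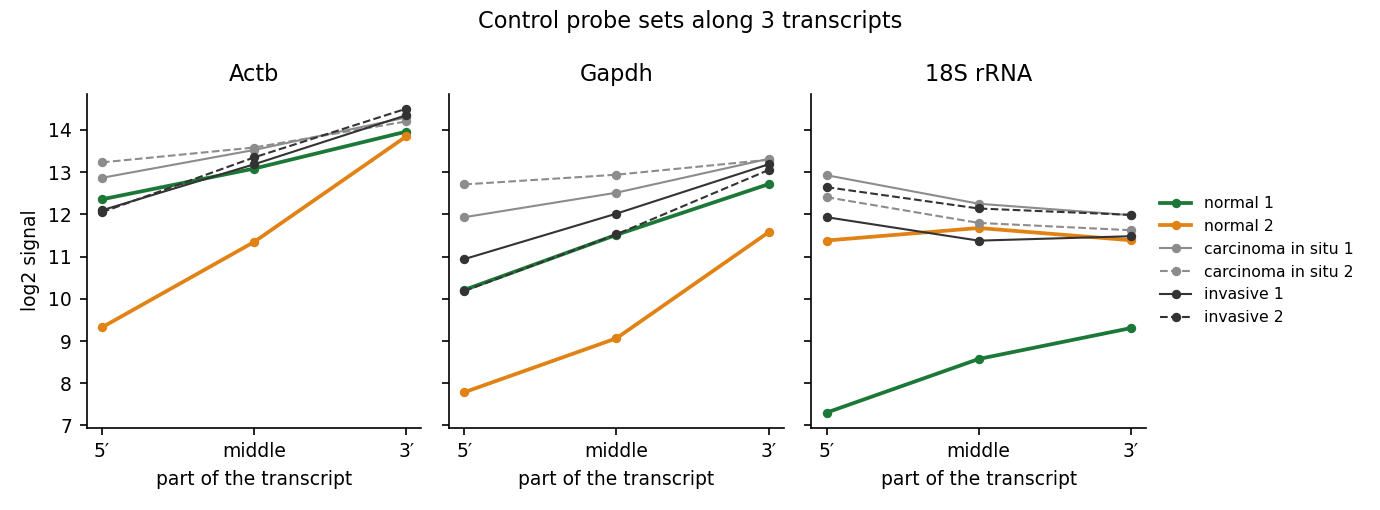
Log2 signal (vertical axis) of control probe sets at the 5′ end, the middle and the 3′ end (horizontal axis) of Actb, Gapdh and 18S ribosomal RNA, with 1 line per array. Normal array 2 has the steepest rise for Actb (4.52 from 5′ to 3′) and Gapdh (3.79), and normal array 1 has the lowest 18S signal at each position (7.30 at the 5′ end).

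The brightest genes shared by both normal arrays included many of the ribosome and a set of urothelial products. In all, 120 of 18193 genes (0.660%) stood in the top 1% of both arrays. The top 1% of a single array held 182 genes, and the 120 shared genes were 65.9% of these. The same share was 88.5% between the carcinoma in situ arrays and 82.97% between the invasive arrays. A gene needed a signal above 12.73 in array 1 and 12.63 in array 2 to enter the top 1%. Just inside stood Rpl8 and Ptgr1 (lower percentile 99.01) and Mal (99.01), and just outside Dsg2 (98.9996), Plet1 (98.99) and Hmgn1 (98.99). The log2 differences between the normal arrays had an SD of 0.69, so neighbours in this order are not separated by these data. Of the 120 genes 80 stood in the top 1% of all 6 arrays. These are all the genes that did so (0.440% of all genes), since such genes belong to the 120 by definition. In the top 5% of all 4 lesion arrays stood 107 of the 120. Between the normal arrays 0 of the 120 were over 2-fold apart, against 13.7% of all genes. The choice itself leaves them little room to differ, as the highest signals on the arrays were 14.74 and 14.70. This 0 is therefore not read as better agreement of bright genes.

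Ribosomal proteins were the most numerous of the described families among these genes, with 29 of the 120. Rps29, a protein of the small ribosomal subunit, headed the order with 14.46 and 14.39. The 48 cytosolic ribosomal protein genes measured had median percentiles of 99.7 and 99.5. Eef1a1, which brings aminoacyl-tRNA to the ribosome, gave 14.28 and 13.96, and Tpt1, a growth-related protein whose mRNA is controlled at translation, gave 14.24 and 14.21. With the median of all its probe sets Tpt1 had a lower percentile of 85.4. Among the genes in the top 1% of both, 30.8% were read by probe sets that may match several transcripts (design suffix x or s), against 9.33% of all genes, so members of families with many processed copies are uncertain. Pik3cd, the catalytic delta subunit of a phosphoinositide kinase, ranked with the first 3 at 14.25 and 14.48 on 1 probe set, while its other 5 probe sets had means of 3.02 to 5.49.

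Urothelial products stood among them. Upk1b, the tetraspanin partner of Upk3a, gave 14.39 and 13.89. Sprr1a, a small proline-rich protein cross-linked under the membrane of squamous cells, gave 14.38 and 13.95. S100a6, a calcium-binding protein, gave 14.38 and 14.20 and was as bright in the lesions (14.16 to 14.41). Keratins of simple epithelia were close behind, with Krt18 at 14.03 and 13.75, Krt8 at 14.22 and 13.73, and Krt7 at 13.59 and 12.85. Ly6d, a surface protein anchored by a lipid, gave 14.28 and 13.48. Ctse, an aspartic protease of epithelial endosomes, gave 13.73 and 13.75, and Clu, a secreted chaperone, gave 13.76 and 13.93.

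Enzymes of detoxification and alcohol metabolism also stood in the top 1%. Gstm1, a glutathione transferase, gave 14.36 and 13.81, and Gsta4, which conjugates lipid aldehydes, gave 14.16 and 13.42. Fmo5, a flavin monooxygenase, gave 13.69 and 14.03. Adh1, an alcohol dehydrogenase that also oxidises retinol, gave 13.66 and 13.27. The whole list of xenobiotic and retinoid genes was not uniformly bright: 3 of 19 were in the top 1% of both arrays, and the median percentiles were 81.0 and 65.6. Shh, the hedgehog ligand that basal urothelial cells send to the stroma, gave 13.48 and 13.14. Fabp5, a fatty acid binding protein of stratified epithelia, gave 13.41 and 13.22. Fabp4, a relative known from fat cells and from urothelium, gave 13.79 and 12.49. It was over 2-fold lower in array 2 and there lay under the cut of 12.63 for the top 1%.

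By family, the uroplakins were the only tissue-specific one among those described whose measured members were all in the top 5%. All 5 measured uroplakins were there in both arrays, against 3.56% of all genes, and 2 of them were in the top 1%. Their median percentiles were 99.3 and 97.9. Upk3b gave 12.94 and 11.93, and Upk2, the partner of Upk1a, gave 12.54 and 11.66. ATP synthase subunits had medians of 97.6 and 96.0, cytochrome c oxidase subunits 95.5 and 94.5, and complex I subunits 94.7 and 95.9. The 39 proteasome genes had medians of 91.8 and 86.7. Large differentiation families were split instead. Of 44 keratins 3 were in the top 1% of both arrays, and the family medians were 43.0 and 43.3. Of 20 claudins, which seal tight junctions, 3 were in the top 5% (Cldn4 at 12.71 and 12.51, Cldn8 at 12.77 and 11.47, and Cldn7), and the medians were 40.8 and 33.3. Of 9 small proline-rich genes only Sprr1a was in the top 5% of both arrays. Low in the order were 28 interleukin genes (medians 15.7 and 16.2), 18 immunoglobulin genes (13.5 and 14.6), 39 olfactory receptors (13.3 and 13.9) and 31 vomeronasal receptors (3.64 and 5.35).

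**Figure D2:**
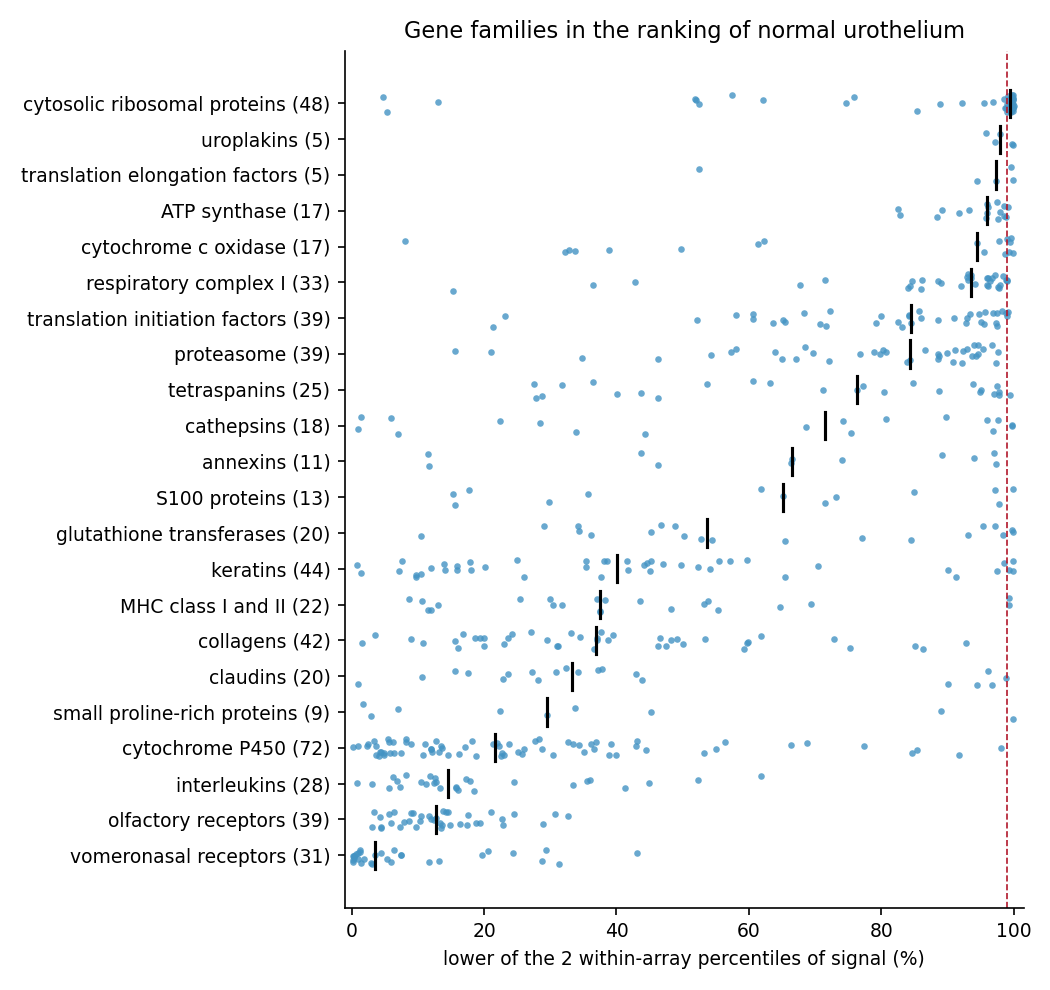
Each point is a gene, placed by the lower of its 2 within-array percentiles of signal (horizontal axis, %), in 22 families with the number of measured genes in parentheses. The black bar is the family median and the dashed line the 99th percentile; ribosomal proteins and uroplakins crowd the right edge, keratins spread over the whole range with 3 genes beyond the line, and chemosensory receptors stay at the left.

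Urothelial differentiation genes as a list stood near the top, and most regulators stood lower than the structural products. Of 20 genes chosen as products or regulators of differentiated urothelium, 12 were in the top 5% of both arrays, 5 were in the top 1%, and the medians were 98.8 and 96.5. Krt19 gave 13.74 and 12.31. The transcription factors Gata3 (11.37 and 11.16) and Foxa1 (12.73 and 11.65), both known for roles in luminal and urothelial identity, were the brightest of 16 urothelial regulators, whose medians were 85.7 and 85.1. Pparg, a nuclear receptor of urothelial differentiation, gave 10.89 and 9.21, and Grhl3, a grainyhead-like factor of barrier formation, gave 11.49 and 9.53. Trp63, a factor of basal cells, gave 10.30 and 10.51.

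Basal and intermediate cell markers were present at mixed levels. Krt5 gave 12.52 and 11.76, and Krt15 gave 12.35 and 10.27. Dst, a linker of keratin filaments to hemidesmosomes, gave 11.75 and 12.39, although its other 3 probe sets were lower in array 2. Krt14, a keratin of progenitors and of squamous change, was at 8.11 and 6.54. Krt17 was dim at 3.03 and 2.98. The 13 measured markers had medians of 93.0 and 86.6. The junction genes were bright as a list, with medians of 95.9 and 94.4 over 20 genes and Cdh1, the epithelial cadherin, at 12.59 and 12.69. Among transport genes the water channel Aqp3 (12.05 and 12.21) and the glucose carrier Slc2a1 (12.17 and 12.25) were brightest.

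No detection calls were used here, so a dim level was set from genes of smell and pheromone sensing. The 95th percentile of 70 olfactory and vomeronasal receptor genes was a log2 signal of 5.66 in array 1 and 5.51 in array 2. Of all genes, 11781 (64.8%) exceeded it in both arrays and 5229 were at or below it in both. Some of these receptors may be expressed outside the nose, so this level is a guide and not a limit of detection.

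Markers of connective tissue and smooth muscle were the clearest non-epithelial signal in the normal arrays. Dcn, a proteoglycan of fibroblasts, gave 11.79 and 11.001, and Col3a1, a fibrillar collagen, gave 9.89 and 10.01. Of 20 fibroblast and collagen markers 18 lay above the reference level in both arrays and 1 below it in both, with median percentiles of 48.4 and 47.9. Lum, another fibroblast proteoglycan, was near the level at 5.98 and 5.36. Among smooth muscle genes Acta2 gave 10.97 and 10.14, and Mylk, the myosin light chain kinase, gave 10.84 and 10.12. Myh11, the smooth muscle myosin heavy chain, gave 8.87 and 5.77, and Actg2, the actin of visceral muscle, gave 10.01 and 7.13. Of 14 smooth muscle markers 12 lay above the reference level in both arrays, against 64.8% of all genes, and 4 were over 2-fold lower in array 2, against 8.71%. Des, the muscle intermediate filament, was at 7.48 and 7.25. Fewer cells of a type and less RNA per cell cannot be told apart in these samples.

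Summed over a list, the linear signal of stromal markers was lower in normal urothelium than in invasive carcinoma. The smooth muscle markers summed to 7560 and 4120 in the normal arrays, 4381 to 4721 in carcinoma in situ and 15198 to 22497 in invasive carcinoma. The fibroblast and collagen markers summed to 8122 and 5688 in normal urothelium, 4578 to 4626 in carcinoma in situ and 47687 to 86354 in invasive carcinoma. Both sums in normal urothelium thus lay below those of both invasive arrays. The endothelial markers summed to 1083 and 1149 in normal urothelium, against 3335 to 5147 in the lesions.

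Endothelial markers were split around the reference level, and most mast cell and fat cell markers were below it. Pecam1 (4.51 and 4.11) and Vwf (4.62 and 4.52), defining genes of vessel lining, were below the reference level, while Esam (7.63 and 7.99) and Kdr (7.10 and 7.70) were above it. In all 8 of 15 endothelial markers were above it in both arrays and 6 below it in both. Over all 18193 genes 64.8% were above it in both arrays, and 5229 were at or below it in both. Of 8 mast cell markers 1, Hdc, was above it in both arrays. Adipoq, the fat cell hormone, was at 3.81 and 4.12, and 4 of 6 fat cell markers were below the level in both arrays. All 10 genes of male accessory glands and prostate were below it in both arrays, with medians of 3.09 and 4.41. Of 8 kidney and choroid epithelium genes 3 were above it in both, among them Ttr (11.87 and 12.09), the thyroxine carrier. The other 3 probe sets of Ttr had normal means of 9.50 to 11.25.

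Leukocyte markers differed in level by cell type, and those of B and plasma cells differed between the arrays. Lyz2 (10.21 and 9.13) and Cd14 (10.10 and 8.84) were the brightest of 14 macrophage markers, 10 of which were above the reference level in both arrays, where 64.8% of all genes lay. The macrophage antigen gene Adgre1 was near it at 5.96 and 5.69. Of the 14 macrophage markers 3 were over 2-fold higher in array 2 and 3 lower, against 5.0% and 8.71% of all genes. Complement gene C1qb was among the higher ones, at 6.20 and 7.93. The macrophage markers summed to 3468 and 3077 in normal urothelium and to 7066 to 32973 in the lesions. Among B and plasma cell markers Ms4a1, the CD20 antigen, gave 4.96 and 9.22, and Jchain, which joins secreted antibodies, gave 5.08 and 7.12. In all 6 of 11 B and plasma cell markers were over 2-fold higher in array 2 and 0 lower, against 5.0% higher and 8.71% lower over all genes. Sdc1 and Xbp1, at 12.48 and 12.94 and at 12.35 and 11.90, belong to this list but are also known in epithelia. T cell genes lay close to the reference level, with Cd3e at 6.11 and 6.96 and 3 of 11 T and NK cell markers above it in both arrays. Of 9 neutrophil markers 2 were above it in both, and S100a8 and S100a9 were above it in array 1 only.

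Of 11 mesothelial markers 8 were above the reference level in both arrays and 0 below it in both, and of 11 nerve and glia markers 5 were above it and 6 below it, against 64.8% of all genes above it. Of the mesothelial markers 3 were over 2-fold higher in array 2 and 1 lower, against 5.0% and 8.71% of all genes. Gpm6a, a membrane glycoprotein of mesothelium and neurons, gave 7.71 and 9.12, Msln gave 7.76 and 7.90, and Wt1 gave 5.88 and 6.55. The mesothelial list also holds Upk3b, which urothelium expresses. Uchl1, a deubiquitinase of neurons, gave 11.77 and 10.81, while the glial genes S100b (5.49 and 5.50) and Sox10 (6.92 and 6.93) stood near or below the median gene.

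**Figure D3:**
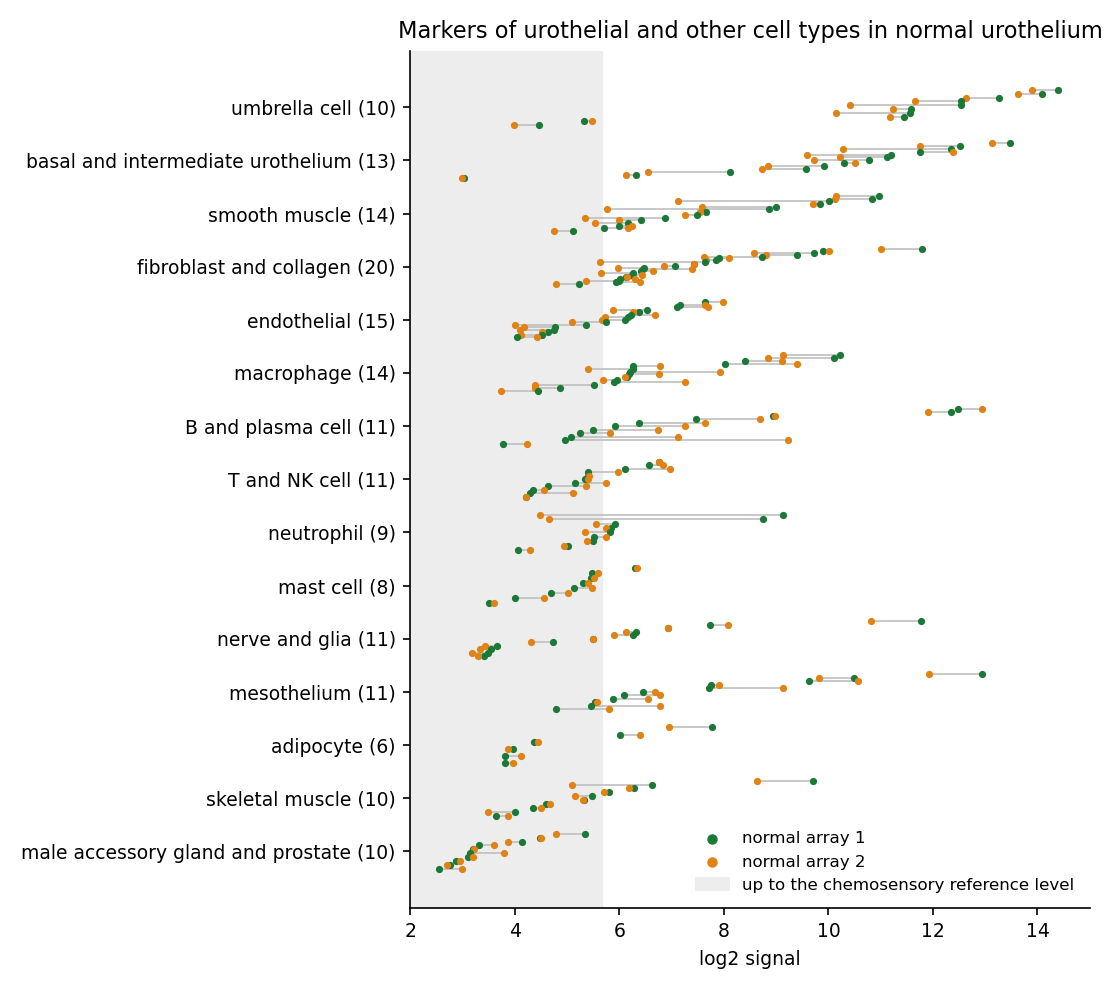
Log2 signal (horizontal axis) of markers of 15 cell types in normal array 1 and normal array 2, with the number of measured markers in parentheses and a line joining the 2 values of a gene. The shaded zone ends at the chemosensory reference level (5.66); umbrella and basal cell markers lie mostly far above it, fibroblast and smooth muscle markers spread above it, and male accessory gland markers lie within it.

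The normal arrays were farther apart from each other than either pair of lesion arrays. In all 2494 genes (13.7%) were over 2-fold apart, against 8 (0.0440%) between the carcinoma in situ arrays and 584 (3.21%) between the invasive arrays. The SD of the log2 difference was 0.69, 0.22 and 0.42 in the same order. Over all 18193 genes, 909 (5.0%) were higher and 1585 (8.71%) lower in array 2. With 1 array against 1 array there is no replicate check, so these are descriptions. Genes of middle and high signal were lower in array 2 more often than dim genes: 16.9% of genes with a mean log2 signal of 9 to 11 were over 2-fold lower in array 2 and 7.60% higher, while below 5 the shares were 0.620% and 0.716%. Above 13 they were 4.76% and 0.952%. At the threshold Suclg1 (-1.0001) was just inside and Tmem38b (-0.9999) just outside.

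Among genes higher in array 2, Xist differed by 6.52 log2 units. Ms4a1 differed by 4.26, and its other probe set, which is dim, was higher by 1.73. Its signal in array 1 (4.96) lay below the reference level, so the size of that difference, and of others that start below the level, depends on the floor of the signal. Dbp, a clock-controlled transcription factor, gave 5.79 and 9.71, and its other probe set differed by 2.21. Aldh3a1, an aldehyde dehydrogenase of cornea and stressed epithelia, gave 6.21 and 9.97, and both invasive arrays were as bright (10.03 and 10.32). Defb1, an antimicrobial peptide of epithelia, gave 8.13 and 11.38. Cyp2f2, a P450 of airway club cells, gave 4.64 and 7.97. Clip4, Mndal, Sema4c, Coro1a, Sbk1 and Trim34a completed the 12 with the greatest difference in this direction (3.11 to 3.80). Their other probe sets did not all repeat this: those of Clip4 differed by -0.11 to 3.79, those of Coro1a by 0.41 to 1.21, that of Sbk1 by 0.93, and that of Trim34a was lower in array 2 by 0.93. Mndal, of the interferon-inducible family, gave 4.47 and 7.93, above all 4 lesion arrays only in array 2.

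Among genes lower in array 2 were S100a9 (9.13 and 4.48) and S100a8 (8.76 and 4.66), the subunits of calprotectin, which neutrophils and stressed squamous cells make. Both were 9.04 or higher in every lesion array, so array 2 was the low one among all 6. Their array 2 values, and that of Igfbp3, lay below the reference level (5.51), so the sizes and order of these differences depend on the floor of the signal. Igfbp3, which binds insulin-like growth factors, gave 9.35 and 5.005, and its other probe set was lower by 2.46. Apoc1, an apolipoprotein, gave 12.003 and 8.08. Ppl, a plakin of the cornified envelope and desmosomes, gave 11.58 and 8.31. Hilpda, a hypoxia-inducible lipid droplet protein, gave 11.23 and 7.99. Thbs1, a matrix glycoprotein, gave 10.22 and 6.58, but its other probe set differed by only -0.35. Pkn2, Col6a3, Cyp2r1, Adgrf4 and Agmo completed the 12, with differences of -3.45 to -3.13.

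Several urothelial lists and families had more genes lower than higher in array 2. Of the 20 urothelial differentiation genes 8 were over 2-fold lower in array 2 and 0 higher, among them Snx31, a sorting nexin of uroplakin traffic (12.54 and 10.42), Grhl3 (11.49 and 9.53), Pparg (10.89 and 9.21) and Krt20. Ivl, a cornified envelope precursor, gave 14.05 and 11.99, and Krt15 differed by -2.08 between the arrays. Of 44 keratins 7 were over 2-fold lower in array 2 and 0 higher, and 4 of 11 annexins were lower and 0 higher. Of the 5 uroplakins 1 was lower and 4 were within 2-fold, of 9 small proline-rich genes 0 were apart, and of 15 cornified envelope genes 3 were lower and 1 higher. Of the 39 proteasome genes 9 were lower and 2 higher, and of 17 ATP synthase genes 7 were lower and 0 higher. Of 13 cholesterol synthesis genes 6 were lower and 1 higher. These shares stand against 8.71% lower and 5.0% higher over all genes. Among all genes with a mean log2 signal of 9 to 11 the shares were 16.9% lower and 7.60% higher. From 11 to 13 they were 16.3% and 6.59%, so lists of bright genes start from higher shares. With the difference centred by a running fit on mean signal, 1349 genes were lower and 1064 higher in array 2. How far the list counts follow signal level was not tested. In the other direction, 6 of 22 MHC genes, 5 of 11 antigen presentation genes and 5 of 18 immunoglobulin genes were higher in array 2 and 0 of each lower, the first 2 lists sharing members. H2-Aa, a class II antigen presentation gene, gave 7.27 and 9.44, and Tap2, a peptide transporter, gave 7.27 and 8.90. The bright class I genes H2-D1 (13.34 and 12.91) and H2-K1 (13.47 and 12.89) were within 2-fold.

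Other probe sets of a gene often did not repeat a difference of this size. Among 3502 genes with at least 2 probe sets at a mean log2 signal of 7 or more in normal urothelium, 776 were over 2-fold apart by the probe set used. In 144 of these (18.6%) all such probe sets were over 2-fold apart the same way, 30 higher and 114 lower in array 2. In 470 (60.6%) all had the same sign. For 50 genes different probe sets were over 2-fold apart in opposite ways. The probe sets of a gene read different stretches of its transcript, and the arrays differed in their signal along transcripts as given above.

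**Figure D4:**
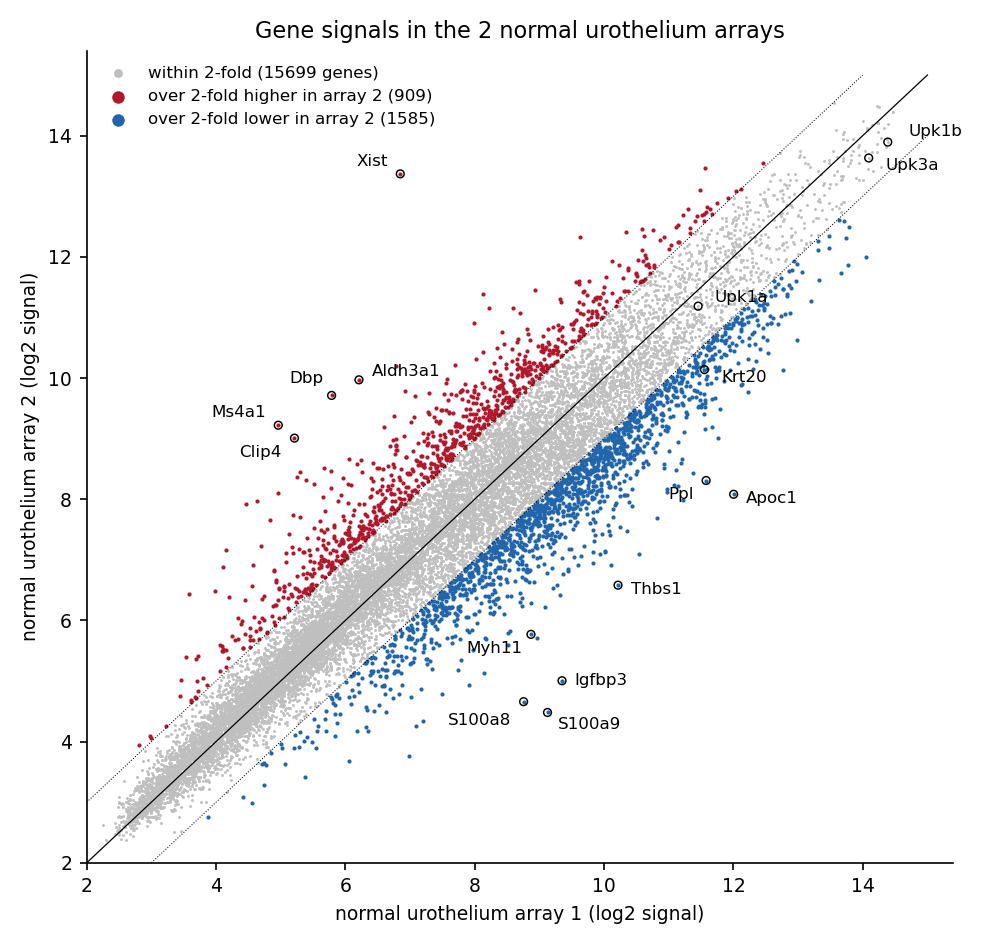
Log2 signal of 18193 genes in normal array 1 (horizontal axis) and normal array 2 (vertical axis), with the line of equality and dotted lines at 2-fold. Coloured points are the 909 genes over 2-fold higher and the 1585 lower in array 2; Xist lies far above the line, S100a8, S100a9 and Igfbp3 far below it, and Upk1b, Upk3a and Upk1a within the dotted lines.

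Against both lesions, normal urothelium was higher in the 5 uroplakins, in 6 of 13 cholesterol synthesis genes and in Meg3 and Rian of an imprinted cluster, and lower in mitotic, interferon, immediate early and vascular genes. The mean of the normal arrays was compared with the mean of both lesion groups by limma, a linear model with moderated variances, with Benjamini-Hochberg adjustment across the 18193 genes and a threshold of 0.05 on the adjusted p. In all 3329 genes (18.3%) were called, 1231 (6.77%) higher and 2098 (11.5%) lower in normal urothelium. The regions were not tied to animals, so if some share an animal these p-values are too small. They measure only the spread between these samples. Of 4 sex-linked genes measured, 3 (the Y-linked Kdm5d, Eif2s3y and Uty) were called higher in normal urothelium and 0 lower. Sex-linked signal thus differed along this contrast as well, and its part in the calls was not tested. The fit used 1 spread per gene for all 3 groups, although the pairs of arrays differed in spread. The SD of the log2 difference was 0.69 between the normal arrays, 0.22 between the carcinoma in situ arrays and 0.42 between the invasive arrays. The error used can therefore be smaller than the normal arrays alone would give. The count depended on single arrays: it was 932 without carcinoma in situ array 1, 1033 without carcinoma in situ array 2, 2084 without invasive array 2, 5196 without normal array 1 and 7890 without the 2 arrays that carry Xist and Y-linked signal together.

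Of the 20 urothelial differentiation genes 8 were higher in normal urothelium and 1 lower, with a median difference of 0.94 log2 units against -0.01 over all genes. Upk3a was 11.58 and 11.71 in carcinoma in situ and 6.84 and 8.91 in invasive carcinoma, so that it was higher in normal urothelium by 4.10 ± 0.56 (SE, limma adjusted p = 0.00764). Krt20 was 5.74 and 5.92 in carcinoma in situ and 9.46 and 8.51 in invasive carcinoma, and it was higher in normal urothelium by 3.44 ± 0.46 (adjusted p = 0.00715). Upk1a, at 9.28 and 9.19 and at 7.43 and 7.42 in the lesions, was higher by 2.99 ± 0.15 (adjusted p = 0.000802). Upk2 (3.31), Upk1b (2.09) and Upk3b (1.69) were higher as well. Both normal arrays lay above all 4 lesion arrays for each of these 6 genes, as they did for 16.9% of all genes. Klf5, a regulator of epithelial growth, was the 1 lower gene (-1.37). Krt8 (-0.03, adjusted p = 0.931) and Krt18 (0.30, adjusted p = 0.264) were not called. The 8 higher genes became 4 without carcinoma in situ array 1 and 5 without array 2, with Upk3a at an adjusted p of 0.0505 without the former, and Upk3b at up to 0.0920.

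Cholesterol synthesis genes were higher in normal urothelium in 6 of 13 and lower in 0, with a median of 1.39. Over all genes 6.77% were higher and 11.5% lower. The normal arrays differed in this list: 6 of the 13 were over 2-fold lower in array 2 and 1 higher, against 8.71% and 5.0% of all genes. Lss, which closes the sterol rings, was higher by 2.02 ± 0.33 (adjusted p = 0.0132), and Dhcr7, the last enzyme of the pathway, gave 9.83 and 9.82 against 8.26 to 8.58 in the lesions. Lss was not called without either carcinoma in situ array or invasive array 2. The count was 3 without either carcinoma in situ array and 12 without normal array 2. Of a list of 9 imprinted and nuclear transcripts, which holds the protein-coding Peg3 as well, 4 were higher (Meg3, Rian, Mirg and Gt(ROSA)26Sor), 0 lower and 5 not called. Meg3, the maternally expressed RNA of an imprinted cluster, gave 12.45 and 13.55 against 7.31 to 9.91, and Rian, from the same cluster, gave 7.85 and 9.90 against 5.31 to 6.47. That count was 2 without carcinoma in situ array 1. Both subunits of the epithelial sodium channel measured in the transport list were higher: Scnn1g by 3.60 ± 0.19 (adjusted p = 0.00103) and Scnn1b by 2.74, the latter not called without either carcinoma in situ array. Of the 15 transport genes these 2 were higher, 1 (Cftr) was lower and 12 were not called. Cldn8, a claudin of tight epithelia, was higher by 4.34 ± 0.37 (adjusted p = 0.00215), while Cldn3 was lower by 3.77 log2 units (-3.77 ± 0.25, adjusted p = 0.00132).

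For the counts that follow, 11.5% of all genes were lower in normal urothelium and 6.77% higher. Mitosis genes were lower in normal urothelium in 14 of 15, with a median of -3.34. Mki67, a marker of cycling cells, gave 5.74 and 6.10 against 9.43 to 10.12, a difference of -3.84 ± 0.16 (adjusted p = 0.000637). Basal keratin Krt14 was lower by 5.67 log2 units (-5.67 ± 0.42, adjusted p = 0.00164), and 3 of 13 basal and intermediate genes were lower and 1 higher. The higher one was Dst (0.97), which turned to -1.65 when the median of all its probe sets was used. Interferon genes were lower in 11 of 13, led by Xaf1 (-4.75), and immediate early and stress genes in 10 of 16, led by Jun (-4.21) and Egr1 (-3.52). Fos was not called, at 11.06 and 10.30 against 9.64 to 10.74. The cornified envelope list was lower in 7 of 15 and higher in 0, with Krt6a at -5.14. Without carcinoma in situ array 1 these counts were 11 for mitosis, 2 for the basal list, 6 for interferon, 6 for immediate early and 3 for cornified genes, and without array 2 they were 11, 2, 6, 5 and 3. The basal count of 3 was 4 without invasive array 2 and 8 without normal array 1.

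All 15 endothelial markers and 10 of 14 macrophage markers were lower in normal urothelium, as were 10 of 20 fibroblast and collagen markers, with Dcn higher by 2.02. Over all genes 11.5% were lower. The contrast averages both lesions. The summed fibroblast signal was lower in carcinoma in situ (4578 to 4626) than in normal urothelium (8122 and 5688), so the fibroblast count need not hold for carcinoma in situ. The endothelial, macrophage and fibroblast lists stand for other cell types that the captured regions could hold. Their part in the differences between normal urothelium and the lesions was not tested. Their counts were 8, 2 and 5 without carcinoma in situ array 1 and 10, 3 and 6 without array 2. Without invasive array 1 the fibroblast count was 15, and without invasive array 2 the macrophage count was 6.

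**Figure D5:**
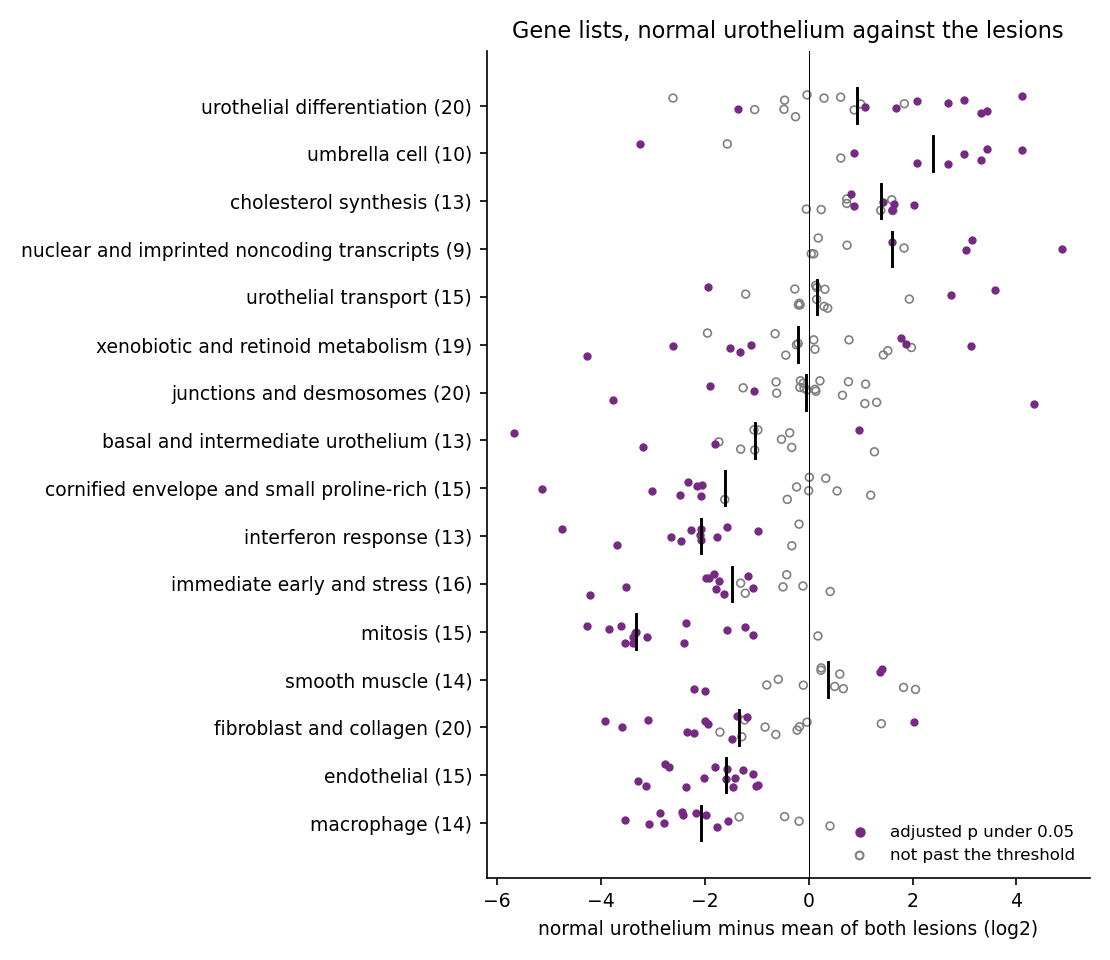
Difference of normal urothelium and the mean of both lesion groups (horizontal axis, log2) for each gene (points) of 16 lists, with the number of measured genes in parentheses and the list median as a black bar. Filled points passed an adjusted p of 0.05 in limma; uroplakins reach 4.10 on the right, Krt14 reaches -5.67 on the left, and the mitosis median is -3.34.

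Among single genes the greatest called differences with no overlap between groups included those of Ttr and Cxcl3. Both normal arrays lay above all 4 lesion arrays for 16.9% of all genes and below them for 19.8%. Ttr was higher in normal urothelium by 6.69 ± 0.20 (adjusted p = 0.000524), with lesion values of 5.01 to 5.56, near the chemosensory reference level of the lesion arrays (5.46 to 5.80). Tmprss11a, a membrane serine protease of squamous and airway epithelia, gave 11.03 and 10.43 against 3.58 to 6.85, and Htr4, a serotonin receptor, gave 10.67 and 9.48 against 4.16 to 5.48. Scube2, a secreted protein that helps release hedgehog ligands, gave 11.45 and 11.64 against 4.53 to 7.41. Slc47a1, an organic cation exporter, Cyp4f15, a fatty acid hydroxylase, and Cntnap2, a neuronal adhesion protein, were higher by 5.16, 4.82 and 4.65. The lowest in normal urothelium were Cxcl3, a neutrophil chemokine (-6.59), Mmp13, a collagenase (-5.77), Ubd (-5.75), Krt14, Mmp7 (-5.55), Cxcl5 (-5.46), Mcpt2, a mast cell protease (-5.45), and Il33, an alarmin (-5.31). Cxcl3 and Mmp13 were below the chemosensory reference level in both normal arrays, at 3.11 and 2.80 and at 3.28 and 3.44. Where one side lies near or below that level, the size of a difference and its place in this order depend on the floor of the signal.

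Of the 120 genes in the top 1% of both normal arrays, none was below the 90th percentile in all 4 lesion arrays. Only 4 were below it in both invasive arrays, and they were singled out after their values were seen: Upk3a, Adh1, Fam25c and Tmem64. Adh1 stood at the 59.1 and 83.7 percentile there, Fam25c at 57.4 and 79.9, and Tmem64 at 79.4 and 81.3. In carcinoma in situ Upk3a, Adh1 and Fam25c stayed between 96.6 and 98.4, while Tmem64 stood at 92.3 and 87.7. Because these genes were picked for a high normal signal, their lower rank in the lesions is a description and carries no test.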

How the data were processed

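Expression was measured in 6 samples of laser-captured mouse bladder urothelium on Affymetrix 3′ arrays. Per the labels, sections were stained before capture and 100 ng of RNA per sample was amplified. The deposited values are log2 signals. The submitters' processing notes name Partek and RMA, without their roles or versions. As usually run, RMA corrects background, forces all arrays onto 1 distribution and summarises each probe set, so differences in total RNA are removed and small folds of dim genes are compressed. The sources used here do not give a genome build. Depth does not apply to arrays, and 2 arrays per group limit the precision. A further table of the authors' comparisons was not used.

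The deposited table held 45101 probe sets. Controls made up 64 of them, 34958 had 1 gene symbol, 932 several and 9211 none. The 34945 named probe sets that were not controls were used, and 34741 were matched by Entrez identifier to RefSeq on GRCm38.p6 for current symbols. A gene was read by its brightest probe set, by the mean of the 6 arrays, which gave 18193 genes, 9010 of them with more than 1 probe set. Percentiles are ranks among these genes within an array. Python 3.11.15 and pandas 2.3.3 made the rankings. The comparison used limma 3.58.1 under R 4.3.3, with 3 group means over all 6 arrays, eBayes (3 residual and 2.69 prior degrees of freedom), two-sided p-values and no filter, and was tested on simulated data.

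The lists (38, with 470 of 520 memberships measured) and 32 families were chosen with earlier results of these data known. Genes were named by rule: the 30 highest lower percentiles, the 12 greatest array differences each way, per list up to 4 highest, 3 apart and 4 called members (2 as values where none was called), per family up to 3, and the 8 greatest separate differences from the lesions each way, leaving out provisional symbols and segments of antigen receptors. Further list members are named where they define a cell type. Replicate numbers 1 and 2 occur in each group, but no label ties them. Between groups the array 2 minus array 1 differences correlated at -0.39, 0.38 and -0.34 over genes, so the numbers were not taken as pairs. The altered genes of the lesion mice were not analysed here. Alternatives were other choices of probe set, other thresholds, array weights, a variance trend, a signal filter, the replicate block and leaving out each array.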

Additional observations from a re-analysis of the deposited data

How the results depend on the processing

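The ranking kept its size when probe sets were chosen otherwise: 119 genes stood in the top 1% of both normal arrays with the highest mean over the normal arrays, 135 with the median of all probe sets and 114 without probe sets of suffix x or s, although only 75 of the 135 were among the 120. At the top 5% the count was 647. The median percentile of the urothelial differentiation list, averaged over both arrays, was 97.6, and 96.5 to 98.8 when a normal array was left out. The count over 2-fold apart (2494) was 243 at 4-fold and 144 when all bright probe sets of a gene had to be over 2-fold apart the same way, a setting chosen after seeing the data that could count only 776 of the 2494. In 470 of those all had the same sign. It ranged from 1856 to 2511 under the other 5 settings, and it cannot be given with a normal array left out. The count called against the lesions (3329) was 2181 with array weights, 3203 with a variance trend, 2750 with a signal filter and 3561 with the median of all probe sets. Leaving out 1 array gave 932 to 5196, with fewer arrays in the fit. Leaving out the 2 arrays that carry Xist and Y-linked signal together, added after seeing the data, gave 7890, the lone array of a group then being assumed to vary like the others. With the replicate block 2926 were called. A different set of 120 genes, those named for a call against the lesions, was also followed, and with the block none of their calls changed. Of those 120 calls 52 and 48 were lost without carcinoma in situ array 1 and array 2, and 12 with array weights. Dst turned to -1.65 with the median of all probe sets, and the cause was not tested. Nothing measures how far signal lay above background, so order among dim genes is not read.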
